A study of Mus musculus with 12 samples.

Results

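Replication-dependent histone genes encode the bulk of the linker histone H1 and of the core histones H2A, H2B, H3 and H4 that package newly made DNA in S phase. The 66 genes described here are the rows of the count table whose mouse gene symbol starts with Hist1h, Hist2h, Hist3h or Hist4h and is not a pseudogene name, out of 42450 genes in all. They comprise 6 H1, 20 H2A, 15 H2B, 12 H3 and 13 H4 genes. A further 3 genes whose symbols fit the rule in GENCODE M21 were not analysed here. By symbol, 54 members belong to Hist1, 9 to Hist2, 2 to Hist3 and 1, *Hist4h4*, to Hist4. The annotation (GRCm38) places these on chromosomes 13, 3, 11 and 6. *Hist1h2al* (chr13:51202727-51203065) lies on chromosome 13 but far from the other Hist1 members. *Hist1h2aj* and *Hist1h2al* count as members by symbol, although the annotation lists both as pseudogenes.

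The cells were wild-type E14tg2a.4, a feeder-independent mouse embryonic stem cell line, kept with the cytokine LIF throughout. They were transfected with 50 nM siRNA against *Srrm2*, which encodes a splicing factor of nuclear speckles, and these cultures are called Srrm2-KD. The controls, Gl2-KD, received siRNA to a luciferase gene of the firefly, which mouse cells lack. RNA was collected at 24 h or at 72 h, and the 72 h cultures had received the same siRNA again one day after the first transfection. Each of the 3 experiments supplied 1 library per siRNA and time, which gives 3 libraries in each of the 4 groups and 12 polyA+ libraries in all. All libraries come from 1 cell line, so differences between lines were not sampled. The p-values rest on the spread between libraries that is left after group and experiment means are taken out. In bulk RNA, fewer cells in S phase and less histone RNA per cell cannot be told apart.

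Most mRNAs end in a poly(A) tail, but replication-dependent histone mRNAs normally end a few bases after a conserved stem-loop. The stem-loop-binding protein SLBP and the U7 snRNP, which holds LSM10 and LSM11, direct the cut, and NPAT and CASP8AP2 act in transcription of these genes at the histone locus body. Some copies also give longer transcripts with a poly(A) tail, for example in cells that have left the cycle. Selection on poly(A) therefore recovers the tailed minority of this RNA, together with whatever untailed RNA is carried over.

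The stem-loop was searched in every annotated member transcript as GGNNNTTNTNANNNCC with arms able to pair over 6 bases, G-T pairs included, on the transcript strand. It was found in 44 of the 66 members: in 4 of 6 H1, 11 of 20 H2A, 8 of 15 H2B, 9 of 12 H3 and 12 of 13 H4 genes. The search could not reach bases past an annotated end. Some of the other members have short annotated transcripts, such as *Hist1h2ai* (393 bases), *Hist1h2bl* (381) and *Hist1h4k* (312). Whether these genes lack the stem-loop was therefore not shown. Of 55384 other annotated genes, 0.2% held the same pattern. The copies that the results turn on follow, with the 16 bases of the stem-loop in capitals and up to 5 bases on each side, read from GENCODE M21 (GRCm38) and given 5′ to 3′ as DNA letters.
Hist1h2bk: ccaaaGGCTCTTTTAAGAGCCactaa
Hist3h2a: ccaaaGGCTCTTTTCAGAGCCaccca
Hist1h4i: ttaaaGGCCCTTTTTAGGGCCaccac
Hist1h1c: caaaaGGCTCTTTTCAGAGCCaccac
Hist1h2ae: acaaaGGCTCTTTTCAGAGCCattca
Hist1h4n: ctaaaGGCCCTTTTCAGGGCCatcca
Hist1h3g: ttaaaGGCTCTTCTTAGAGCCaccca

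The most frequent form, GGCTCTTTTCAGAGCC, occurred in 24 members, and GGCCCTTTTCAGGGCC in 7, all of them H4 genes. The 7 stem-loops differ more in how far the annotated transcript runs on than in their letters. *Hist1h2bk* (chr13:22035870-22036345, plus strand) ended 30 bases past the stem-loop and *Hist1h4n* 31 bases past it. *Hist1h4i* (chr13:22040636-22041362, minus strand) ran on for 330 bases, *Hist1h1c* (chr13:23738808-23740367, plus strand) for 840 and *Hist3h2a* (chr11:58954685-58956830, plus strand) for 1643. Of the 44 members with a stem-loop, 22 ended under 100 bases past it and 22 at 100 bases or more. The polyadenylation signal AATAAA or ATTAAA stood in the last 50 bases of an annotated transcript in 14 of the 44. It stood there in 3 of the 22 members without a stem-loop in their annotated transcripts.

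The histone genes took a very small share of these libraries. Their summed level was 24.4 to 34.6 CPM (counts scaled to a common library size, with TMM factors), or 0.00236% to 0.00367% of a library's counts. By class, H2A summed to 7.85 to 11.7 CPM, H2B to 6.1 to 10.7, H3 to 4.14 to 6.07, H4 to 2.99 to 5.34 and H1 to 2.92 to 5.25. The library totals were 73933196 to 153343831 estimated counts, so that a typical tested member rested on few counts: the median of the mean count per library was 38.9 over the members tested and 751.0 over all genes tested. The 12 replication-independent histone variants on a second list, most of whose mRNAs carry ordinary poly(A) tails, summed to 2520 to 4080 CPM in the same libraries. These sums are not per length.

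Untailed RNA was also present. Small nuclear, small nucleolar and Cajal body RNA genes, together with other named RNAs without a poly(A) tail, summed to 87.1 to 137 CPM over 2916 genes, many of which lie inside introns of other genes. The 16 named RNAs alone summed to 1.73 to 6.44 CPM, most of it *Rn7sk*, with a mean of 2.27 CPM, while *Rnu7* and *Terc* were listed at 0 in all libraries. How much of the histone signal was tailed RNA and how much was carry-over was not tested.

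Levels between genes were compared as CPM per kb of the longest annotated transcript. *Hist1h2bk*, an H2B gene, had the highest level at 5.45 ± 1.37 CPM per kb (SD, n = 12). *Hist1h2ai* followed at 4.53 ± 1.28, and these neighbours lay within each other's spread. *Hist1h2ap* came next at 2.61 ± 0.805, further below *Hist1h2ai* than either SD. *Hist1h3c* at 2.19, *Hist1h3h* at 2.15, *Hist1h4i* at 1.83 and *Hist1h2af* at 1.5 CPM per kb each lay within an SD of the gene above. The next 5 of the 12 highest, which lay within each other's spread, were *Hist1h2bc* (1.42), *Hist3h2a* (1.27), *Hist1h3g* (1.23), *Hist1h2ah* (1.21) and *Hist1h1a* (1.21). All classes were thus among the 12 highest, with 5 H2A, 2 H2B, 3 H3, 1 H4 and 1 H1 gene. Of these, *Hist1h2ai*, *Hist1h2ap*, *Hist1h3h*, *Hist1h2af* and *Hist1h2ah* have under 10% of their 31-base stretches to themselves. Their order therefore also depends on how counts were divided among near-identical copies. In CPM not divided by length, the longer transcripts moved up, and *Hist3h2a* had the most with a mean of 2.73 CPM. Only 8 of the 66 members reached a mean of 1 CPM, and 14 stayed under 0.1 CPM.

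At the low end stood the testis-enriched copies. *Hist1h2ba*, the testis H2B, was listed at 0 in all 12 libraries, which allows at most 0.00213 CPM at 3 counts over all of them, a limit that covers counting error only. *Hist1h2aa*, its testis H2A partner, had a mean of 0.0272 CPM, and *Hist1h1t*, the testis H1, of 0.0525 CPM. These 3 and *Hist1h2an*, *Hist2h2ab*, *Hist2h2ac* and *Hist1h4m* are the 7 members that did not pass the filter on low counts. The other 59 were tested.

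**Figure D1:**
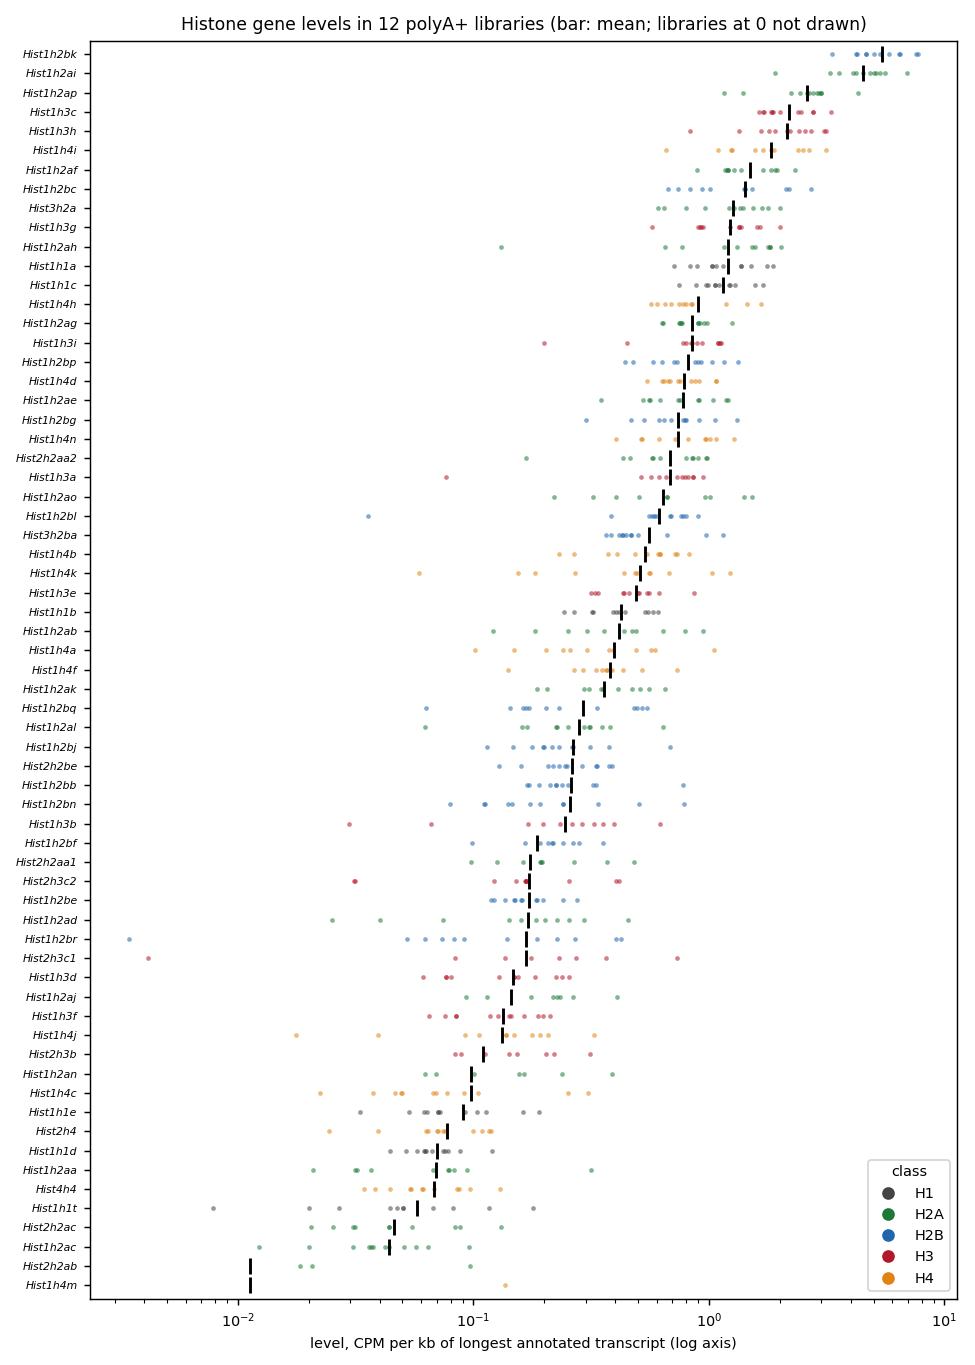
Level of each histone gene in CPM per kb of its longest annotated transcript, on a log axis, with 1 point per library, the mean as a bar and the colour as the class; libraries at 0 are not drawn and *Hist1h2ba*, at 0 throughout, is left out. Levels run from a mean of 5.45 in *Hist1h2bk* to 0.0113 in *Hist1h4m*, and points of low genes scatter over a wider range of the log axis.

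Many H2A and H2B genes sit head to head and share the stretch between their starts. In 12 such pairs the annotated starts were 176 to 306 bases apart, and the levels of the partners often differed. *Hist1h2bk* had 5.45 ± 1.37 CPM per kb (SD, n = 12) and its partner *Hist1h2ah* 1.21 ± 0.681, with *Hist1h2bk* higher in all 12 libraries. *Hist1h2bc* was higher than *Hist1h2ac* in all 12 libraries as well, at a mean level of 1.42 against 0.0439 CPM per kb. In the pair of *Hist1h2ai* and *Hist1h2bl* the H2A gene was higher in all 12 (4.53 against 0.612 CPM per kb). The share of 31-base stretches found in no other gene is 24.7% in *Hist1h2bk*, 7.5% in *Hist1h2ah*, 8.0% in *Hist1h2ai* and 11.4% in *Hist1h2bl*. Levels in these pairs therefore also depend on how counts were divided among copies. *Hist1h2ae* and *Hist1h2bg* were close, at 0.778 ± 0.273 and 0.741 ± 0.271 CPM per kb, and their order changed between libraries.

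The shared region of *Hist1h2bk* and *Hist1h2ah* is shown as the last 120 bases before each RefSeq start, each on its own gene's strand, with the promoter of *Hist1h4i* beside it. Capitals mark the CCAAT box (CCAAT), the TATA box (TATAAA) and the octamer of histone H2B promoters (ATTTGCAT) on either strand. The sequences are from RefSeq (GRCm38.p6) at chr13:22035701-22035820 (plus strand), chr13:22035644-22035763 (minus strand) and chr13:22041363-22041482 (minus strand).
Hist1h2bk: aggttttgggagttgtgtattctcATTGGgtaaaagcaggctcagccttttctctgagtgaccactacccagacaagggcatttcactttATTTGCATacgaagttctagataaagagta
Hist1h2ah: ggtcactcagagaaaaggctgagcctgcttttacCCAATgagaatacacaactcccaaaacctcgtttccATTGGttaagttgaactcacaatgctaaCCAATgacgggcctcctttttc
Hist1h4i: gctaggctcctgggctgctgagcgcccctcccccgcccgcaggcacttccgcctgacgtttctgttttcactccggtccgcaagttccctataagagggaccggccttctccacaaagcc

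The first 2 sequences hold the same CCAAT box, read on opposite strands, and the third holds none of the motifs in this stretch. By synonym, 57 RefSeq promoters were matched to members, and *Hist1h2be*, which has separate RefSeq starts, was counted at each. In the 250 bases before the start, CCAAT was found in all 45 promoters of H1, H2A, H2B and H3 genes but in 3 of 12 H4 promoters, against 33.8% of all 32851 promoters. The octamer was found in 7 of 17 H2A and 5 of 14 H2B promoters and in none of the 26 others, against 1.6% of all promoters. TATAAA was found in 29 of 57 (12.4% of all promoters). A match is a run of letters and was not linked to expression.

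The knockdown was read first in *Srrm2* itself. In experiments 1, 2 and 3 it had 911, 496 and 449 CPM in Gl2-KD against 517, 154 and 200 CPM in Srrm2-KD at 24 h. At 72 h it had 962, 479 and 442 CPM in Gl2-KD against 461, 182 and 217 CPM in Srrm2-KD. At each time it was lower with the *Srrm2* siRNA in 3 of 3 experiments, although the groups overlapped. The log2 difference was -1.22 (SE 0.14) at 24 h and -1.16 (SE 0.14) at 72 h, with edgeR adjusted p of 0.0663 and 0.0991, both above 0.05. With DESeq2 both passed (adjusted p of 5.03e-11 and 1.72e-09), and over all alternatives the adjusted p at 24 h lay between 5.03e-11 and 1.0, and that at 72 h between 1.72e-09 and 1.0. Experiment 1 stood apart from experiments 2 and 3 in *Srrm2* level in all groups.

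All 12 embryonic stem cell markers listed were present, with means of 127 (*Klf4*) to 1820 CPM (*Dppa5a*). Fibroblast or feeder markers summed to 4.3 to 24.6 CPM, of which *Thy1* made most, with *Dcn* and *Lum* near 0, and primitive endoderm markers summed to 1.69 to 3.03 CPM. Trophoblast markers summed to 3.35 to 21.8 CPM. Their sum was higher at 72 h, where 1 of 5, the keratin *Krt7*, was called in both siRNA groups (log2 1.83 and 1.77, edgeR adjusted p 0.0144 and 0.0333). The markers had no common direction: 3 of 5 in Gl2-KD and 4 of 5 in Srrm2-KD had fitted values above 0. *Cdx2* and *Elf5* had lower mean CPM at 72 h with each siRNA. The feeder sum was highest in experiment 3 (20.5 ± 4.03 CPM, SD, n = 4, against 6.02 ± 1.55 in experiment 1), and its part in the histone values was not tested.

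At 24 h, no histone gene passed the test of Srrm2-KD against Gl2-KD. Of the 59 members tested 0 passed the adjusted threshold of 0.05 in edgeR, as did 0.0% of all 19410 genes. At an unadjusted p below 0.05 there was 1 member, against 2.62% of all genes. DESeq2 and limma-voom called 0 members too, while they called 25 and 2 genes of all tested. The median log2 difference was 0.07 over the members and 0.01 over all genes, and the median standard error was 0.49 over the members and 0.21 over all genes, so that a typical member had the wider interval.

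The member with the smallest p at 24 h was *Hist1h2bc* (chr13:23684199-23692908, plus strand), an H2B gene with a spliced annotated transcript. In experiments 1, 2 and 3 it had 1.63, 1.77 and 0.858 CPM in Gl2-KD against 3.14, 2.46 and 1.65 CPM in Srrm2-KD. It was higher in Srrm2-KD in every experiment, but the groups overlapped, because experiment 3 was low with both siRNAs. The log2 difference was 0.8 (SE 0.28), with an unadjusted p of 0.0156 and an adjusted p of 1.0 in edgeR.

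*Hist1h4i*, an H4 gene, had 1.38, 1.82 and 0.794 CPM in Gl2-KD against 1.93, 2.29 and 1.23 CPM in Srrm2-KD at 24 h. It too was higher in each experiment with overlapping groups (log2 0.47, SE 0.26). *Hist1h1a*, a linker histone gene with 99.7% of its 31-base stretches found in no other gene, had 1.01, 1.12 and 0.849 CPM in Gl2-KD against 0.659, 0.797 and 0.614 in Srrm2-KD. Its groups did not overlap, with Srrm2-KD lower (log2 -0.52, SE 0.3, adjusted p 1.0). *Hist1h4a* (log2 1.14, SE 0.62) and *Hist2h2aa2* (-0.85, SE 0.47) complete the 5 members with the smallest p. Counts without overlap were 3 members higher and 3 lower of 59, or 5.08% each, against 1.89% and 1.55% of all genes. Such counts take no account of experiment. Between experiments, 58.5% of all genes but 10.2% of members differed (edgeR adjusted p below 0.05), so these shares, here and below, are not like for like. Whether members shifted more often than other genes was not tested.

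At 72 h, no histone gene passed either. In edgeR 0 of 59 members and 0.0% of all genes were called, and 4 members had an unadjusted p below 0.05 (6.78%, against 12.9% of all genes). In 3 of them Srrm2-KD was higher and in 1 it was lower, against 5.01% and 7.86% of all genes. The median log2 difference was -0.05 over the members and -0.02 over all genes, with 28 members above 0 and 31 below. By experiment the members' median was 0.11, 0.12 and -0.19. DESeq2 called 1 member, *Hist1h4i*, among 542 genes, and limma-voom 0 members among 4 genes.

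*Hist1h4i* had the smallest p at 72 h. In experiments 1, 2 and 3 it had 0.905, 0.912 and 0.48 CPM in Gl2-KD against 1.14, 1.74 and 1.34 CPM in Srrm2-KD. All 3 Srrm2-KD libraries were above all 3 Gl2-KD libraries. Its log2 difference was 0.93 (SE 0.26), a fold of 1.9, with an unadjusted p of 0.00457 and an adjusted p of 0.201 in edgeR. With DESeq2 the adjusted p was 0.0308, and over all alternatives it ran from 0.0308 to 1.0 with log2 differences of 0.63 to 1.22.

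The H4 genes had no common direction, with 7 of 12 above 0 and 5 below. *Hist1h4n* had 0.416, 0.414 and 0.548 CPM in Gl2-KD against 0.174, 0.224 and 0 CPM in Srrm2-KD at 72 h, where 0 counts in experiment 3 allow up to 0.0409 CPM by counting error alone. Its Srrm2-KD libraries all lay below the Gl2-KD ones (log2 -1.97, SE 0.69, adjusted p 0.284). *Hist1h4i* and *Hist1h4n* share 26.1% of the 31-base stretches of *Hist1h4i*, and only 12.5% of those of *Hist1h4n* are found in no other gene. *Hist1h4n* shares 85.2% with *Hist1h4m*, which had 0.0546 CPM in the library where *Hist1h4n* was at 0 and 0 in the other 11, so that the division of counts between these copies bears on that 0. The H4 class as a whole had 0.947, 1.29 and 0.933 times the Gl2-KD level in experiments 1, 2 and 3, which spans 1.

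Of the remaining members in the 5 with the smallest p at 72 h, *Hist1h2bq* had 0.465, 0.337 and 0.289 CPM in Gl2-KD against 1.05, 0.673 and 0.996 CPM in Srrm2-KD, without overlap (log2 1.36, SE 0.47, adjusted p 0.282). *Hist1h2bn* (log2 1.77, SE 0.76) and *Hist1h2bp* (0.68, SE 0.32) were also above 0 in all 3 experiments. Counts without overlap were 4 members higher and 3 lower, or 6.78% and 5.08%, against 2.99% and 3.67% of all genes. *Hist1h2bk*, the member with the highest level, was among the 3 lower, at 3.08, 3.6 and 3.67 CPM in Gl2-KD against 2.53, 3.06 and 2.76 CPM in Srrm2-KD (log2 -0.31, SE 0.2).

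**Figure D2:**
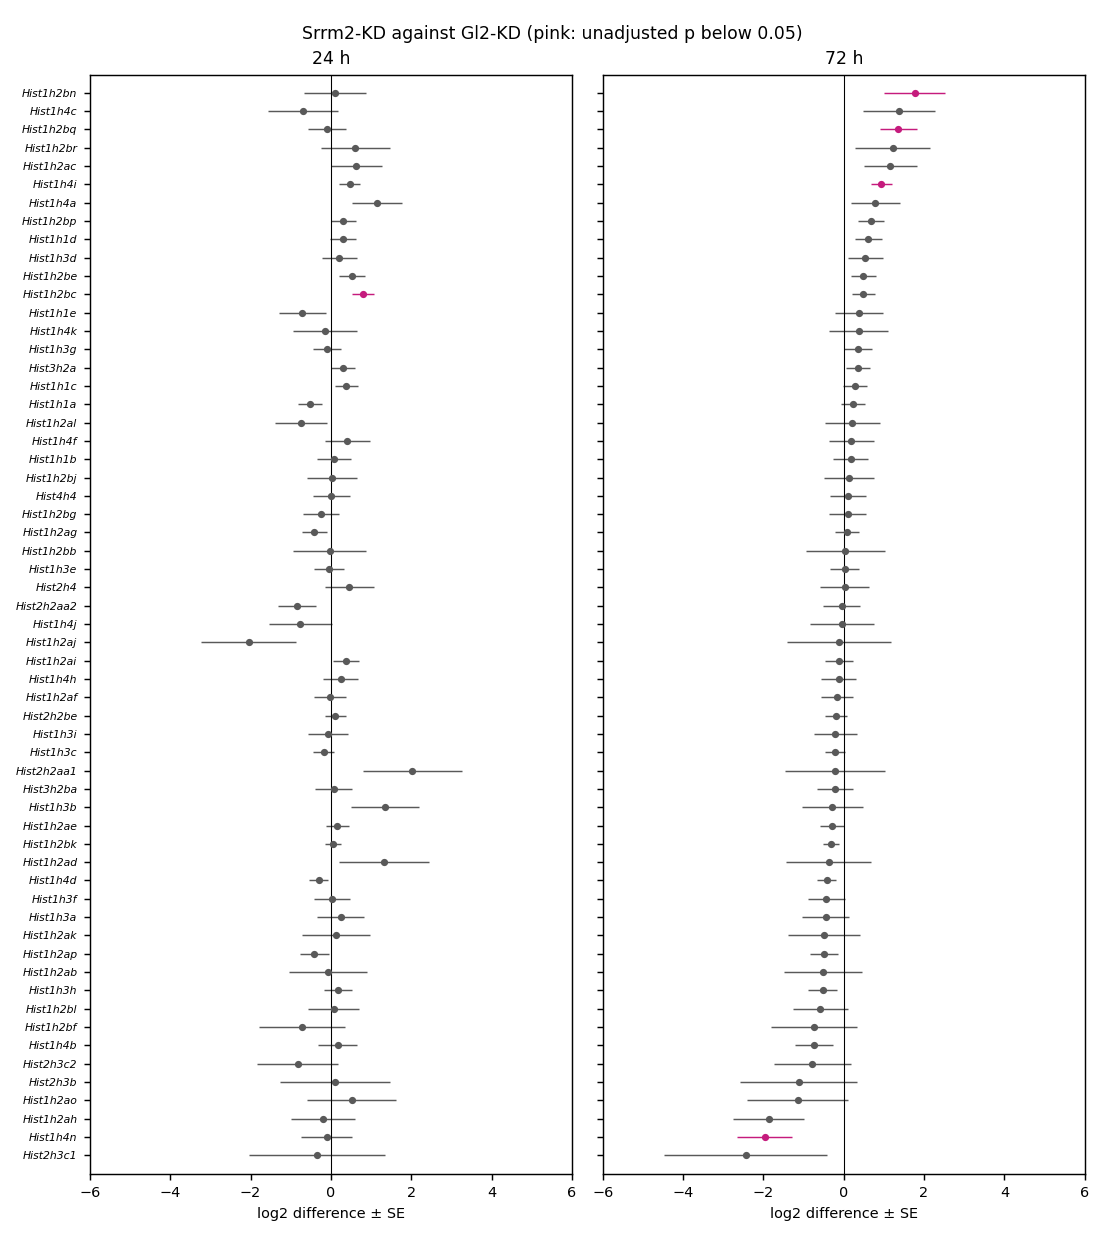
Log2 difference of Srrm2-KD against Gl2-KD for the 59 tested histone genes, with 24 h in the left panel and 72 h in the right, in the order of the 72 h values, with the standard error as a bar and an unadjusted p below 0.05 in pink. Genes fall on both sides of 0 at each time, and *Hist1h4i* and *Hist1h2bc* are among those above 0 at both.

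Because SRRM2 is a splicing factor, the 5 members with an annotated intron are given together. Replication-dependent histone genes are otherwise free of introns, and all 5 are H2B genes of the Hist1 cluster. At 24 h the log2 differences were 0.8 in *Hist1h2bc*, 0.52 in *Hist1h2be*, 0.31 in *Hist1h2bp*, -0.09 in *Hist1h2bq* and 0.61 in *Hist1h2br*. At 72 h they were 0.49, 0.49, 0.68, 1.36 and 1.22, with 0 of the 5 called at either time. These 72 h values are all above 0, as are 28 of the 59 members tested, but *Hist1h2bc* and *Hist1h2br* were each lower in Srrm2-KD in 1 of 3 experiments. *Hist1h2bq* and *Hist1h2br* cannot be read as separate genes, since *Hist1h2bq* shares 98.3% of its 31-base stretches with *Hist1h2br*. The table gives 1 value per gene, so spliced and unspliced forms were not separated here.

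Members split by their annotated end had unlike sums at 72 h. The 22 members that end under 100 bases past the stem-loop summed to 10.8, 11.4 and 12.7 CPM in Gl2-KD against 8.84, 10.7 and 10.1 CPM in Srrm2-KD, which is 0.819, 0.939 and 0.795 times as much. The 22 that run on for 100 bases or more summed to 10.7, 10.8 and 11 CPM in Gl2-KD against 11.4, 12.7 and 15.2 CPM in Srrm2-KD, or 1.07, 1.18 and 1.38 times as much. The other 22, without a stem-loop in their annotated transcripts, summed to 9.08, 8.58 and 9.13 CPM in Gl2-KD against 9.38, 11.1 and 7.75 CPM in Srrm2-KD. Their ratios of 1.03, 1.29 and 0.849 lay on both sides of 1. At 24 h the ratios were 1.06, 0.905 and 0.931 for the short-ended and 1.09, 1.12 and 1.28 for the long-ended members. For the members without a stem-loop they were 1.33, 0.99 and 1.02. By level, *Hist1h2bk* is the largest part of the short-ended sum, and *Hist3h2a*, *Hist1h1c* and *Hist1h4i* of the long-ended sum. Other genes also moved these sums at 72 h. The long-ended *Hist2h3c1*, with no unique 31-base stretch, had 0.497, 0.667 and 0.00761 CPM in Gl2-KD against 0, 0 and 1.34 in Srrm2-KD. Among short-ended members, *Hist1h2ap* had 1.28, 1.44 and 2.08 against 0.673, 1.39 and 1.42 CPM. *Hist1h3c* had 1.75, 1.55 and 1.74 against 1.16, 1.17 and 2.07 CPM. The split was made with the data known, and it was not tested. The untailed RNA genes moved beside it, at 99.0, 117 and 87.1 CPM in Gl2-KD against 125, 137 and 106 CPM in Srrm2-KD at 72 h, and their part was not tested.

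**Figure D3:**
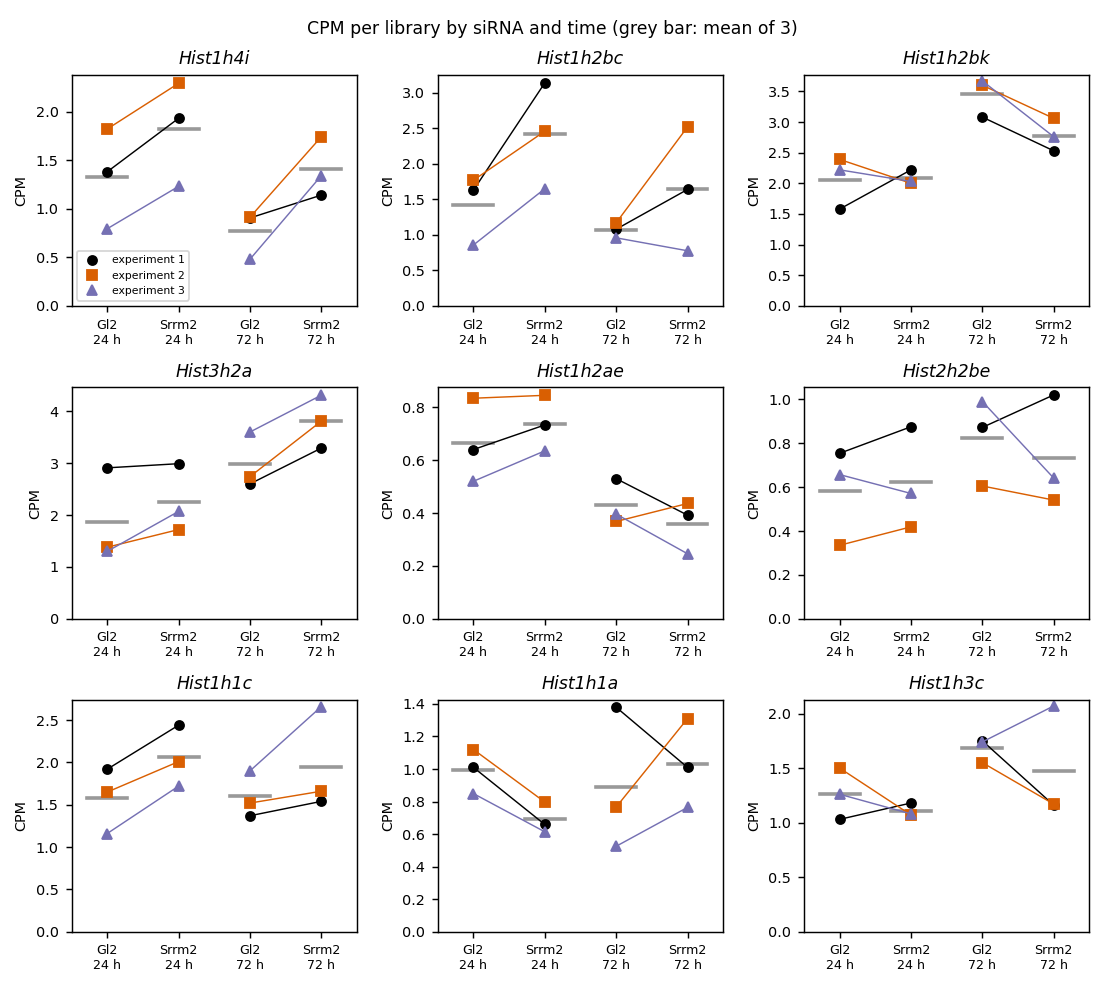
CPM of 9 histone genes in each library, by siRNA and time, with 1 symbol per experiment, a line between the siRNAs of 1 experiment and time, a grey bar at the mean of 3, and axes from 0. *Hist1h4i* lies higher in Srrm2-KD than in Gl2-KD in all 6 pairs, *Hist3h2a* and *Hist1h2bk* lie higher at 72 h than at 24 h in most libraries, and *Hist1h3c* has no common direction between the siRNAs.

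The second question is what changed between 24 h and 72 h of culture with the same siRNA. In Gl2-KD, 0 of 59 members were called by edgeR, against 1.45% of all genes (0.747% higher and 0.706% lower at 72 h), and 3 members had an unadjusted p below 0.05 (5.08%, against 16.8%). Of these, 2 were higher and 1 lower at 72 h, against 9.59% and 7.21% of all genes. The members' median log2 difference was 0.11, against 0.02 over all genes. DESeq2 called 2 members among 1338 genes, and limma-voom 0 among 482.

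*Hist1h2bk* had the smallest p in Gl2-KD. It had 1.58, 2.39 and 2.22 CPM at 24 h and 3.08, 3.6 and 3.67 CPM at 72 h in experiments 1, 2 and 3. Every 72 h library was above every 24 h library, a log2 difference of 0.75 (SE 0.2), with an adjusted p of 0.0881 in edgeR. DESeq2 (adjusted p 0.00407) and the newer spread estimate of edgeR (legacy=FALSE) called it, and over all alternatives the adjusted p ran from 0.00407 to 1.0. Only 24.7% of its 31-base stretches are its own, and 67.9% are shared with *Hist1h2bq*. Summed over the family of 12 H2B genes that share sequence, the level was 6.53 ± 1.31 CPM at 24 h and 6.86 ± 0.303 at 72 h of Gl2-KD (SD). That is a log2 difference of 0.09 (SE 0.16, edgeR adjusted p 0.828), so the rise of *Hist1h2bk* was not seen in the family sum.

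*Hist1h4i* was lower at 72 h than at 24 h of Gl2-KD in each experiment, at 0.766 ± 0.248 against 1.33 ± 0.517 CPM (SD, n = 3), with overlapping groups. Its log2 difference was -0.78 (SE 0.26), with an adjusted p of 0.158 in edgeR and 0.0461 in DESeq2, over a range of 0.0461 to 1.0. This comparison and the 72 h knockdown comparison share the 3 Gl2-KD libraries at 72 h, whose mean was the lowest of the 4 groups for *Hist1h4i*. *Hist3h2a* (log2 0.74, SE 0.31), *Hist1h3b* (1.8, SE 0.83) and *Hist1h2ae* (-0.6, SE 0.29) followed. Without overlap were 3 members higher and 2 lower, or 5.08% and 3.39%, against 3.91% and 3.36% of all genes.

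In Srrm2-KD, 0 of 59 members were called between the time points, against 0.551% of all genes (0.191% higher and 0.361% lower at 72 h), and 3 members had an unadjusted p below 0.05 (5.08%, against 16.3%). Of these, 1 was higher and 2 lower at 72 h, against 7.72% and 8.54% of all genes. DESeq2 called 1 member among 1061 genes and limma-voom 0 among 259. *Hist1h2ae* (chr13:23570517-23571220, minus strand), an H2A gene, had 0.733, 0.845 and 0.635 CPM at 24 h and 0.392, 0.436 and 0.246 CPM at 72 h. All of its 72 h libraries were below all 24 h libraries, at log2 -1.06 (SE 0.29). The adjusted p was 0.122 in edgeR and 0.0459 in DESeq2, over a range of 0.0459 to 1.0.

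*Hist3h2a*, an H2A gene outside the large clusters, had 2.99, 1.72 and 2.07 CPM at 24 h and 3.29, 3.81 and 4.31 CPM at 72 h of Srrm2-KD. The times did not overlap (log2 0.8, SE 0.31, adjusted p 0.231). In Gl2-KD it had 2.91, 1.38 and 1.3 CPM at 24 h and 2.6, 2.74 and 3.6 CPM at 72 h. There the times overlapped, since it was lower at 72 h in experiment 1 and higher in experiments 2 and 3. The annotated *Hist3h2a* transcript shares 32.1% of its 31-base stretches with the neighbouring gene *Trim17*, so part of its counts may belong to that gene. *Hist1h2bc* (log2 -0.63, SE 0.28), *Hist2h2aa2* (1.02, SE 0.48) and *Hist1h2bq* (1.02, SE 0.48) were next. Without overlap were 4 members higher and 2 lower (6.78% and 3.39%, against 3.58% and 3.9% of all genes).

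**Figure D4:**
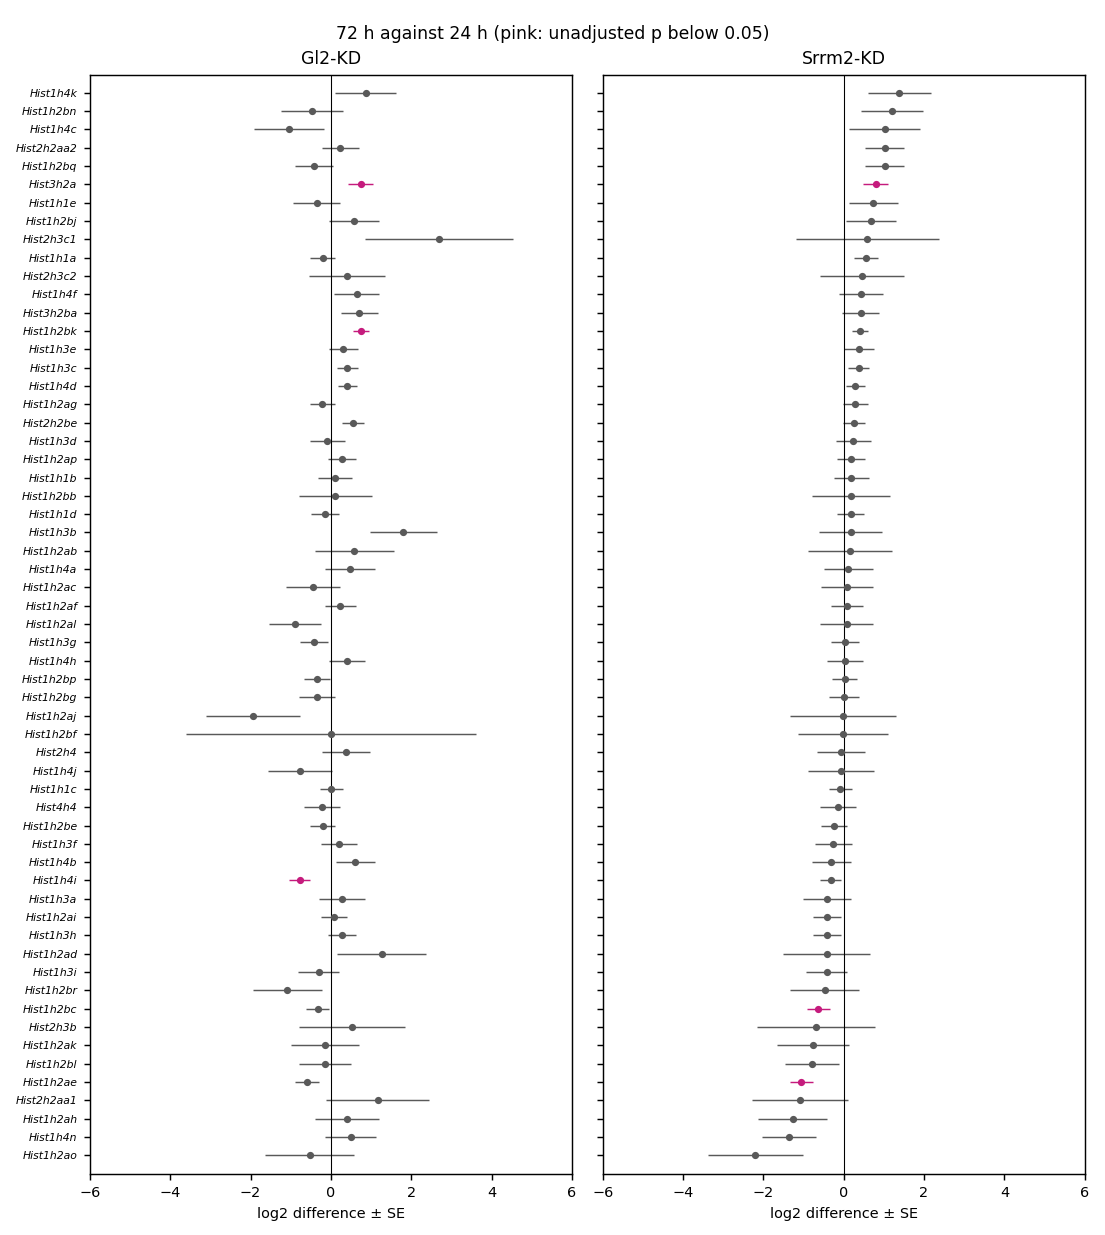
Log2 difference of 72 h against 24 h in Gl2-KD (left) and Srrm2-KD (right) for the 59 tested histone genes, in the order of the right-hand values, with the standard error as a bar and an unadjusted p below 0.05 in pink. *Hist3h2a* and *Hist1h2bk* lie above 0 and *Hist1h2ae* below 0 on both sides. Standard errors run from 0.2 to 3.61 in Gl2-KD and from 0.2 to 1.77 in Srrm2-KD. The 3.61 is that of *Hist1h2bf*, whose difference was 0.0, where the way the SE was derived is unstable. Its SE was 1.06 for the siRNA at 24 h and at 72 h.

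No member passed the test of whether the change with time differed between the siRNAs. This interaction gave 0 calls of 59 (0.0% of all genes) and 0 members at an unadjusted p below 0.05 (1.64% of all genes). DESeq2 and limma-voom also called 0 members, each with 2 at an unadjusted p below 0.05. The smallest p was that of *Hist1h2bq* (0.0521, log2 1.45, SE 0.67), followed by *Hist1h4n* (-1.85, SE 0.93), *Hist1h1a* (0.76, SE 0.43), *Hist1h4c* (2.08, SE 1.26) and *Hist1h2bn* (1.68, SE 1.1).

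By class, the median log2 difference at 72 h of Srrm2-KD against Gl2-KD was 0.28 over 5 H1, -0.2 over 16 H2A, 0.12 over 14 H2B, -0.37 over 12 H3 and 0.06 over 12 H4 genes, with 0 called in each. The fitted values of all 5 tested H1 genes were above 0 at 72 h, but in 2 of 3 experiments *Hist1h1e* had less CPM in Srrm2-KD, as had *Hist1h1a* and *Hist1h1b* in 1 of 3. *Hist1h1c*, the H1 gene with the most CPM, had 1.37, 1.52 and 1.9 CPM in Gl2-KD against 1.54, 1.66 and 2.66 CPM in Srrm2-KD, which overlap (log2 0.28, SE 0.29). The H1 sum gave ratios of 0.927, 1.23 and 1.68 by experiment, on both sides of 1.

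More members passed the test between experiments than those between siRNAs or times. Over all genes 58.5% differed between experiments at an adjusted p below 0.05, and 6 of 59 members did (10.2%). At an unadjusted p below 0.05 the shares were 64.0% of all genes and 9 of 59 members (15.3%). The members rest on fewer counts than most genes, and the part that this plays in the lower share was not tested. Averages over the 4 libraries of experiments 1, 2 and 3 were 0.879 ± 0.107, 0.475 ± 0.121 and 0.715 ± 0.187 CPM (SD) in *Hist2h2be*, an H2B gene of the Hist2 cluster, with the lowest values in experiment 2 (adjusted p 0.0181). *Hist1h2bc* had 1.87 ± 0.883, 1.98 ± 0.638 and 1.06 ± 0.4 CPM (adjusted p 0.0201) and *Hist1h4i* 1.34 ± 0.441, 1.69 ± 0.572 and 0.959 ± 0.396 (adjusted p 0.0226). Both were lowest in experiment 3, as was *Hist1h3d* with 0.222 ± 0.0431, 0.24 ± 0.0785 and 0.0918 ± 0.0107 CPM (adjusted p 0.0232). *Hist1h2bq* (0.0365) and *Hist1h4j* (0.0409) were highest in experiment 1. Leaving out 1 library left 1 to 5 calls: 1 without Srrm2-KD 24 h replicate 2, and 3 each without Gl2-KD 24 h replicate 2 or 3, Gl2-KD 72 h replicate 3, Srrm2-KD 24 h replicate 1 or Srrm2-KD 72 h replicate 3. The test between experiments was not run with an experiment left out.

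The values of single genes also depend on how counts are divided among near-identical copies. Of the 66 members, 41 have under 50% of their 31-base stretches to themselves, and 14 under 10%. Among tested members the spread between libraries, after group and experiment means were taken out, had a median SD of 0.39 on the log2 scale over the 22 genes with 50% or more unique sequence and of 0.59 over the 37 below. Among members with a mean count of 40 or more the medians were 0.32 (11 genes) and 0.47 (17 genes). The genes with less unique sequence also had fewer counts. The median mean count was 44.4 against 38.1 over tested members, and 105 against 64.7 over those with 40 or more. The part of shared sequence and of counts in the spread was not tested. *Hist1h2bk* had an SD of 0.16 despite its low unique share, and *Hist2h3c1*, with no unique stretch, had 2.09.

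**Figure D5:**
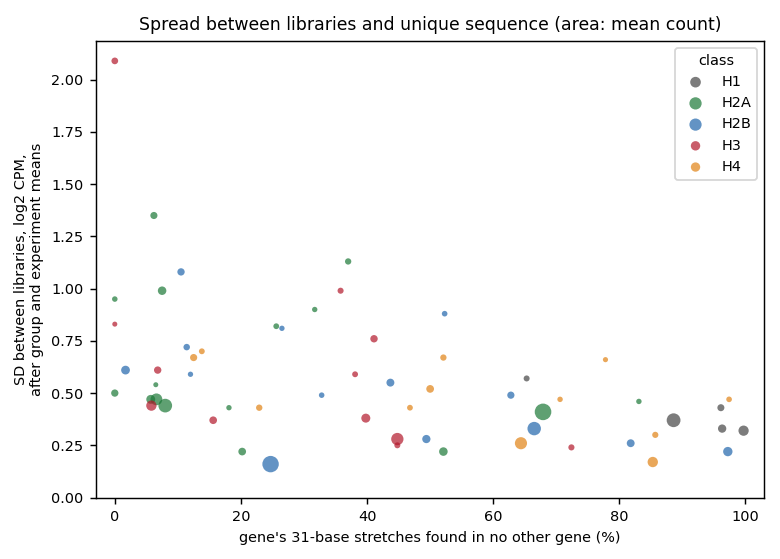
Residual SD between libraries on the log2 CPM scale against the percentage of a gene's 31-base stretches found in no other gene, for the 59 tested members, with colour as class and area as mean count. The points above an SD of 1 lie at low unique shares, and both *Hist1h1a* (0.32) and *Hist2h2be* (0.22), at over 97%, lie low.

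When members and other genes that share 50% or more of a member's 31-base stretches were summed before the fit, 6 families and 12 single members were tested, and 0 of these 18 were called for siRNA or time. The H2B family of 12 genes, led by *Hist1h2bk*, had 6.86 ± 0.303 CPM in Gl2-KD against 7.87 ± 0.885 in Srrm2-KD (SD, n = 3) at 72 h, a log2 difference of 0.19 (SE 0.16, adjusted p 0.655). The H2A family of 13 genes had 6.45 ± 0.961 and 5.21 ± 0.739 CPM (log2 -0.31, SE 0.18, adjusted p 0.51). The H3 family of 9 genes had 4.95 ± 0.189 and 4.5 ± 0.379 CPM (log2 -0.14, SE 0.17). The H4 family that holds *Hist1h4i* had 2.01 ± 0.0653 and 2.83 ± 0.66 CPM (log2 0.47, SE 0.24, adjusted p 0.44). The pair of *Hist1h4m* and *Hist1h4n* had 0.459 ± 0.077 and 0.151 ± 0.0873 CPM (log2 -1.7, SE 0.46, adjusted p 0.184).

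The genes that process histone mRNA or act on its transcription were all present. Of 30 factors 0 were called in any siRNA or time comparison, with median log2 differences of 0.02 at 24 h and 0.05 at 72 h of Srrm2-KD against Gl2-KD. At an unadjusted p below 0.05 there were 2 at 24 h, against 2.62% of all genes, and 8 at 72 h, against 12.9%. Of the 8, 2 were higher and 6 lower, against 5.01% and 7.86% of all genes. *Slbp*, whose protein binds the stem-loop, had 132 ± 19.5 CPM (SD, n = 3) in Gl2-KD against 126 ± 19.9 in Srrm2-KD at 24 h, and 111 ± 10.4 and 106 ± 17 CPM at 72 h (log2 -0.07 and -0.08, SE 0.1 each). It was lower at 72 h than at 24 h in all 3 experiments with each siRNA (log2 -0.24 and -0.25, SE 0.1, adjusted p 0.23 and 0.236). *Npat* had log2 differences of 0.06 and 0.05 for the siRNA at 24 h and 72 h, *Casp8ap2* of -0.04 and 0.08, *Lsm10* of 0.14 and 0.1 and *Lsm11* of 0.03 and 0.07, with SE of 0.11 to 0.17. The 3 smallest p at 72 h were those of *Dcp2*, a decapping enzyme (log2 -0.37, SE 0.12, adjusted p 0.238), *Exosc10*, a nuclear exosome subunit (0.3, SE 0.1, adjusted p 0.244), and *E2f1*, a G1/S transcription factor (-0.25, SE 0.1, adjusted p 0.318).

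Of the 32 G1/S and DNA replication genes, a list that also holds *Slbp*, 0 were called for siRNA or time. Their sum was 6920 ± 417 CPM in Gl2-KD against 6830 ± 273 in Srrm2-KD at 24 h, and 6410 ± 250 and 6230 ± 68.2 CPM at 72 h (SD, n = 3). The median log2 difference between siRNAs was 0.0 at both times. Between the times it was -0.11 in Gl2-KD and -0.09 in Srrm2-KD, with 27 and 25 of 32 genes below 0 and 4 and 8 lower at an unadjusted p below 0.05, against 7.21% and 8.54% of all genes. The smallest p were those of the cyclin E gene *Ccne1* in Gl2-KD (log2 -0.65, SE 0.17, adjusted p 0.0794) and of the DNA ligase gene *Lig1* in Srrm2-KD (-0.34, SE 0.09, adjusted p 0.117). The summed histone level over the same groups was 28.4 ± 3.53, 30.7 ± 4.27, 31.4 ± 1.26 and 32.4 ± 2.51 CPM.

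Of the 18 histone chaperones 0 were called, with median log2 differences of -0.03 at 24 h and -0.07 at 72 h of Srrm2-KD against Gl2-KD. The smallest p at 72 h was that of *Nap1l1*, an H2A-H2B chaperone (log2 -0.49, SE 0.11, adjusted p 0.145). Of 11 replication-independent variants tested 0 were called, with median log2 differences of 0.01 and -0.13, and *H3f3b*, which encodes H3.3, had the smallest p at 72 h (log2 0.26, SE 0.09, adjusted p 0.277).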

How the data were processed

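Per the labels and the methods of the study, the authors pseudo-aligned paired-end reads of 12 stranded polyA+ libraries to GENCODE M24 with kallisto 0.46.1 and deposited estimated counts, 1 value for each gene in each library, not normalised. How transcripts were summed to genes was not stated. Gene names, transcripts and positions came from GENCODE M21 (GRCm38), which matched 42156 of 42450 identifiers, and promoters from RefSeq.

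After rounding, counts were fitted in edgeR 4.0.16 (R 4.3.3): filterByExpr (minimum count 10), TMM, and 1 quasi-likelihood fit (legacy=TRUE) of all libraries with a term per group and the experiment as a block. A call is a Benjamini-Hochberg adjusted p below 0.05 over 19410 genes. The SE was derived as the absolute log2 difference over the square root of the test's F statistic. It is unstable where the difference is near 0. The experiment stands in for the RNA processing day, a covariate of the study that the sources used here do not give per library. Libraries of the same experiment deviated together: after removal of group means, correlations across genes were 0.281 to 0.747 in 18 same-number pairs and -0.628 to 0.231 in 36 others. Directions per experiment used log2(CPM + 0.01) and the residual SD log2(CPM + 0.05). Scripts were tested on simulated data.

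Named genes are the 12 members with the highest level per kb, the 5 with the smallest p per group comparison, the 6 with the smallest p between experiments, *Srrm2*, the tested members with introns, and from the lists *Slbp*, *Npat*, *Casp8ap2*, *Lsm10*, *Lsm11* and the smallest p. Other genes were named with their values already known. The members, lists and alternatives were chosen with earlier results of these data known. Alternatives were DESeq2 1.42.0, voom with limma 3.58.1, unscaled library totals, RLE factors, other filters and spread estimates, no block, subsets of groups, unrounded counts, and each library or experiment left out. Added after the data were seen were family sums and a block for each experiment and time together.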

Additional observations from a re-analysis of the deposited data

How the results depend on the processing

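Over 29 alternatives, 0 of the named differences changed sign. No member was called for the siRNA at 24 h or for the interaction under any alternative run. At 72 h of siRNA, DESeq2 called 1. For time, DESeq2 called 2 members in Gl2-KD and 1 in Srrm2-KD, and legacy=FALSE called 1 in Gl2-KD. Between experiments, the 6 calls became 10 with legacy=FALSE and 1 with family sums, and 1 to 5 with 1 library left out. Leaving out libraries kept 0 calls in the 4 siRNA and time comparisons. In the family sums, *Hist1h2bc*, *Hist1h2bq*, *Hist1h3d*, *Hist1h4i* and *Hist1h4j* were merged into families and not tested singly, so that count is over other units. The cause of the other shifts was not tested. With no replicate block, 0 members were called in every group comparison, and over all genes the calls in Gl2-KD with time went from 282 to 0. Blocking each experiment and time together gave 0 calls for the siRNA. For the siRNA, the members' median log2 difference was between -0.04 and 0.12 at 24 h, and between -0.14 and 0.13 at 72 h, so its sign depended on the setting, as it did for time (-0.04 to 0.29 in Gl2-KD and -0.12 to 0.2 in Srrm2-KD). The members' median standard error was 0.48 to 0.49, against 0.21 to 0.22 over all genes, so that only large differences in a typical member could pass. They had fewer counts than a typical gene and many share sequence, and the part of each in this was not tested. The near-identical copies cannot be separated further from gene counts.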
